A study of Rattus norvegicus with 9 samples.

Results

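The genes described here copy and mend DNA in the rat heart. They are the DNA polymerases and primase, the factors that start and carry replication, and the genes of the Fanconi anaemia, homologous recombination, end joining, mismatch repair and excision repair pathways, with the DNA ligases and topoisomerases. Within these families the genes were taken by symbol, with no use of measured values: every gene of the deposited tables whose symbol belongs to them was taken, and its locus was followed through its reference transcripts in all 9 libraries. This gave 67 genes of 24655 loci of at least 200 nt. Family members not found by name, among them Pola1, Pole, Rpa1, Rfc1 and Top2a, are not analysed here. A family name is not a function: Ercc6l and Rad21, for example, are best known for their work on mitotic chromosomes.

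The study sequenced RNA from hearts of Sprague-Dawley rats with no genetic change named in the labels, 3 libraries in each of 3 groups. The fetal group is ventricle at embryonic day 18, with titles that number the litters and RNA isolated with Trizol. Both adult groups are left ventricle with RNA isolated on a Qiagen column kit: one after transverse aortic constriction (TAC), which overloads the heart with pressure, and one after sham surgery without the constriction. Stage, region of the heart and RNA isolation change together and cannot be told apart. Neither the adult age, nor the time from surgery to sampling, nor whether fetuses of a litter were pooled is given in the sources used here. Nothing in the adult labels says that each library is a separate animal, so a p-value measures the spread between libraries, which may be technical. Mb (myoglobin) and Actc1 (cardiac actin) were the 2 of 15 cardiomyocyte markers looked up that were found by name, and both were abundant in all 9 libraries.

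Before a cell divides, origin recognition proteins mark the start sites of replication, and the helicase, with its GINS partner, opens the DNA there. Replication protein A coats the single strands, primase lays down primers, the clamp loader places the sliding clamp, and polymerases delta and epsilon copy the strands, which ligase then seals. Repair pathways deal with crosslinks, breaks, mismatches and damaged bases, and some of their proteins work mainly at the replication fork. Cardiomyocytes divide in the fetus and largely stop soon after birth, while other cells of the adult heart still can.

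Many promoters of replication genes carry sites for E2F, the transcription factor family that drives entry into S phase. RefSeq promoter windows of the GRCr8 build, from 250 bases before to 50 bases after the annotated start, were found for 56 of the 67 genes (59 windows, 6 genes through an older symbol). The E2F-type letters TTTGGCGC or TTTCCCGC, on either strand, stood in 12 of these 59 windows (20.3%), against 485 of all 33469 windows of that length (1.45%) and 1.88% of 21851 windows of protein-coding genes. Of the remaining motifs searched on both strands, CCAAT stood in 45.8% of the windows and in 37.5% of all windows. The cell cycle homology letters TTTGAA stood in 8.47%, against 18.3% of all. No motif is contained in another. In Gins1 a match of TTTGGCGC on the plus strand overlaps one on the minus strand. A match is a description of letters, not of a bound site. The windows of 5 genes with a match are printed below in the direction of transcription, with the E2F-type letters or their reverse complement in capitals: 4 genes that were higher in fetal ventricle and Pole4, which was lower. Pole2 lies at chr6:93435312-93435611 (minus strand), Gins1 at chr3:160184670-160184969 (plus strand), Rfc3 at chr12:5836318-5836617 (plus strand), Fancd2 at chr4:148234458-148234757 (plus strand) and Pole4 at chr4:116728802-116729101 (minus strand).
Pole2: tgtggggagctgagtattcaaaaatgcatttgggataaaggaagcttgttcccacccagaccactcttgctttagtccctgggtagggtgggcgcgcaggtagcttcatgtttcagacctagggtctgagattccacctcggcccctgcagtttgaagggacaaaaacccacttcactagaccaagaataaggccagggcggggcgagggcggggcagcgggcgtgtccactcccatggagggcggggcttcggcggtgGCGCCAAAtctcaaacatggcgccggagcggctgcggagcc
Gins1: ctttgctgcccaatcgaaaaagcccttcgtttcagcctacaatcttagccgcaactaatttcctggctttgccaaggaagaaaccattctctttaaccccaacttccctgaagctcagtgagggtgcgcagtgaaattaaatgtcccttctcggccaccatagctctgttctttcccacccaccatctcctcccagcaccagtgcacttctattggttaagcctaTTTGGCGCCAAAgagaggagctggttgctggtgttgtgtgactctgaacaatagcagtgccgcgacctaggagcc
Rfc3: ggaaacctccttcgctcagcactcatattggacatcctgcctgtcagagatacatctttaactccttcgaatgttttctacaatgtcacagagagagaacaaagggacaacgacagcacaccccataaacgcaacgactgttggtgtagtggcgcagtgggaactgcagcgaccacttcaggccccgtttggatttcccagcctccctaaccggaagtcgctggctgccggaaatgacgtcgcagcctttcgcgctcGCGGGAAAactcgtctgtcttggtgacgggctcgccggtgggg
Fancd2: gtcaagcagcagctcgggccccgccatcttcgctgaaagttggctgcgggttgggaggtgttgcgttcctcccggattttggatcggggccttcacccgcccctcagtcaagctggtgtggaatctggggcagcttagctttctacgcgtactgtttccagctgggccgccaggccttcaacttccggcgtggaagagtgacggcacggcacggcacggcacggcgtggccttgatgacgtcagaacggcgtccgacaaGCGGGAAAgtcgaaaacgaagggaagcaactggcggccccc
Pole4: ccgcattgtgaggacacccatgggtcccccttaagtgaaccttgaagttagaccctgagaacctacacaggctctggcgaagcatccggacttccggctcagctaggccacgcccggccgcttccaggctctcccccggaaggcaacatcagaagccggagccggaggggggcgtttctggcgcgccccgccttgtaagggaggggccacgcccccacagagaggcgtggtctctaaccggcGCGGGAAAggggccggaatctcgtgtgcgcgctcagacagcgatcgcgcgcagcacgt
The match began 9 bases after the annotated start in Pole2, 7 after it in Rfc3 and 9 after it in Fancd2, and 25 bases before it in Gins1 and 8 before it in Pole4. By the fetal against sham comparison given next, the letters stood in 8 of 39 windows of genes called higher (20.5%), 1 of 7 windows of genes called lower (14.3%) and 3 of 13 windows of genes not called (23.1%). The share was no higher among genes called higher than among genes not called.

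The deposited FPKM values were rescaled so that libraries can be compared, and all levels below are rescaled FPKM (fragments per kilobase of transcript, on a scale where the mean library total is 1e+06). The confidence bounds in the files imply, in units of 1e+06 fragments, depths of 8.58 to 16.4 in TAC, 16.5 to 29.4 in sham and 22.7 to 32.4 in fetal libraries, so depth moved with the groups. The median member rested on 35.6 to 111 implied fragments in the adult libraries and on 356 to 514 in the fetal ones. Replicate 1 of each group held assembled features down to 43 nt and the other libraries down to 63 nt. Fetal replicate 2 stood apart in Actc1, at 135444 against 14012 and 18891 in fetal replicates 1 and 3. Without that library 61 members could be fitted in the fetal against sham comparison. Of these 34 were called higher and 7 lower, beside 18.1% and 21.0% of all loci. With replicates 2 and 3 of each group alone 59 could be fitted, and 28 were higher and 4 lower, beside 16.9% and 21.0%.

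The fetal against sham comparison asks how far the genes that copy and mend DNA differ between a growing and a grown heart. Most of them were higher in the fetal ventricle, led by Fancd2, Pole2, Gins1, Ercc6l and Brca1. Of 65 members tested, 43 were higher, 8 were lower and 14 were not called at an adjusted p of 0.05 (limma, adjusted over all 14116 loci tested). Among all loci tested, 22.5% were called higher and 23.2% lower. These shares also stand beside every family count below. The falls of 1 of 4 mismatch repair genes and of 2 of 8 replicative polymerase and primase genes are near them. The count over all members depends on the assembled transcripts that share a locus with the reference ones. With reference transcripts alone 60 members could be fitted, and 15 were higher and 3 lower, beside 5.82% and 10.2% of 12553 loci. Of the 51 genes called with all transcripts, 18 kept call and sign there, 28 lost the call and 5 (Polg, Fanca, Fancb, Brca1 and Brca2) could not be fitted. The members' median log2 difference was 1.06, between -1.40 (Pold4) and 3.66 (Fancd2), and the median of all loci was 0.04. All log2 differences are on the log2(FPKM + 1) scale, which understates the change of genes with low levels. In a whole-tissue sample, more cells that express a gene and more RNA of it per cell cannot be told apart. All fetal libraries lay above all sham libraries in 47 of the 65 members and below them in 8 (29.3% and 28.8% of all loci). The sum over the 67 genes was 688.2 to 762.9 in sham, 676.0 to 784.7 in TAC and 1295 to 1369 in fetal libraries, with no overlap between fetal and adult.

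Loci had to reach 1 FPKM in at least 3 libraries to be tested, and 8 members (Pole2, Fanca, Fancb, Fancd2, Fancg, Brca1, Brca2 and Ercc6l) did so in fewer than 3 adult libraries. These 8 entered through the fetal libraries and had to differ, so they lend no weight to the count. Without them, 35 of 57 members were called higher (61.4%) and 8 lower, beside 20.2% and 24.6% of the 13288 loci that reached the level in 3 adult libraries. With no filter all 67 members were fitted: 38 were called higher and 6 lower, beside 16.9% and 16.3% of 19510 loci. Msh4, which acts in meiosis, reached at most 0.208 in any library and was not tested. Its partner Msh5 was at 0.269, 5.12 and 3.23 in fetal libraries and at most 0.137 in adult ones, and was not tested either.

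**Figure D1:**
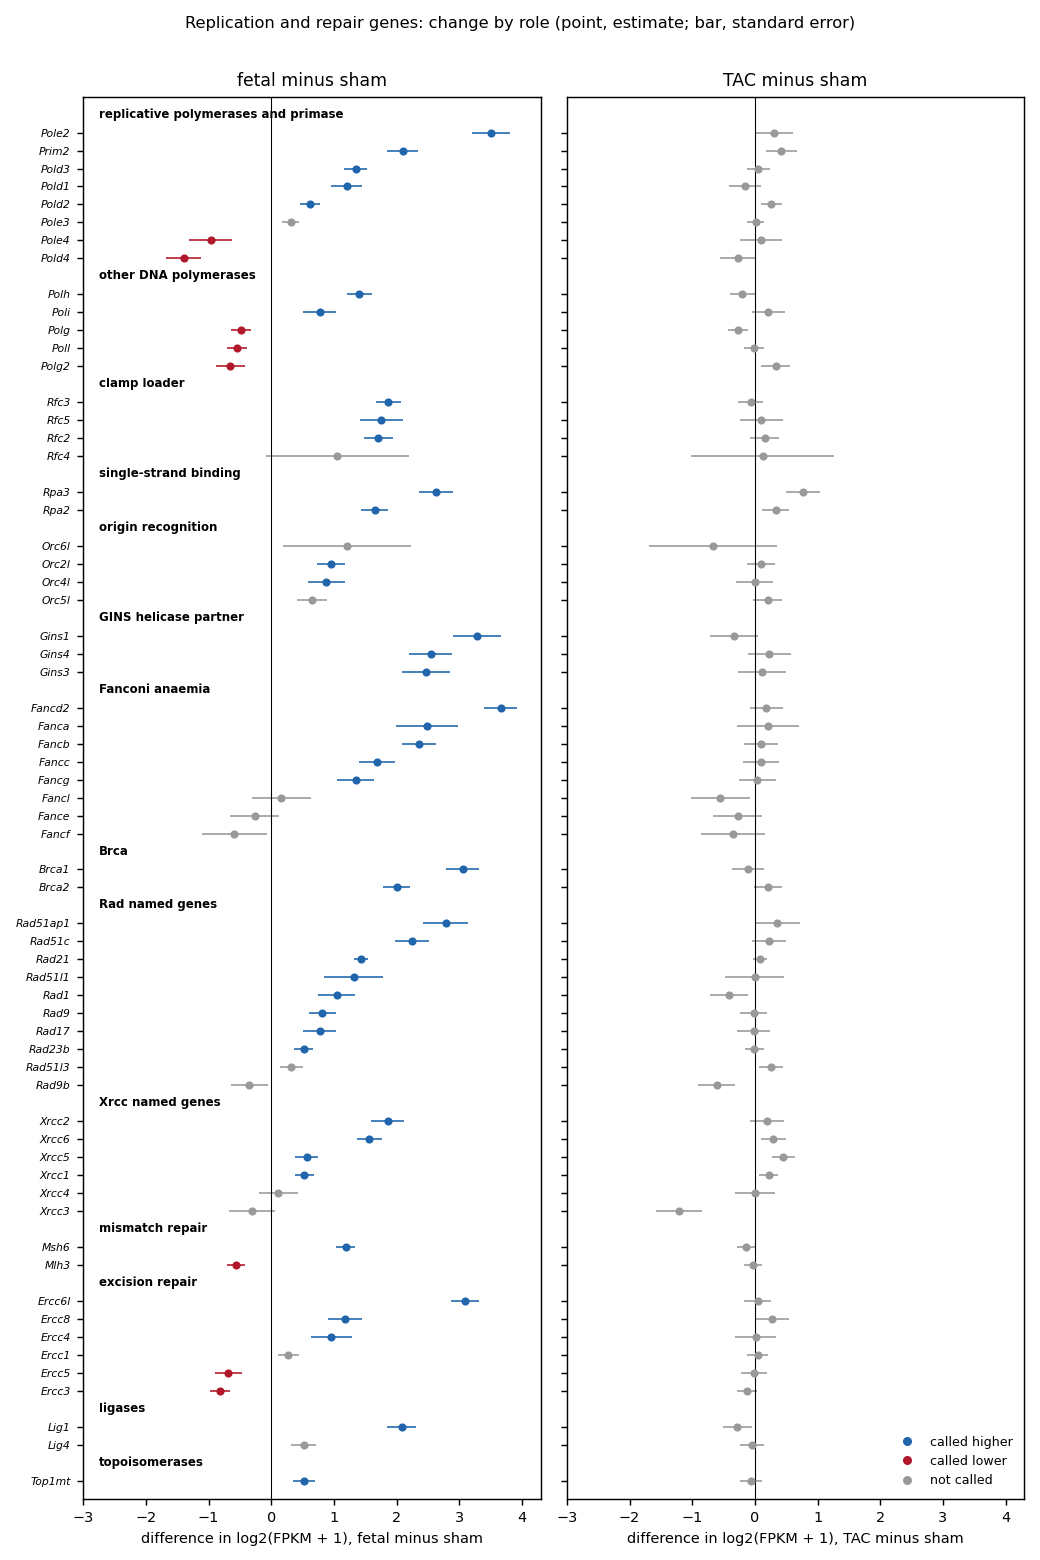
Difference in log2(FPKM + 1) of 63 of the 65 tested genes, grouped by family, for fetal minus sham (left) and TAC minus sham (right); points are estimates, bars standard errors, and colour shows the call. On the left most points are called higher and the 8 called lower are drawn in red, and on the right none is called.

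Among the replicative polymerases and primase, 5 of 8 members rose, 2 fell and Pole3 was not called. Of those that rose, Pole2 passed the filter through the fetal libraries and lends no weight to the count. Pole2, the second subunit of the leading-strand polymerase epsilon (rn4, chr6:91155519-91180109), was at 0.196, 0.162 and 0.279 in sham, 0, 1.19 and 0.5299 in TAC and 14.9, 10.3 and 13.8 in fetal libraries. The fetal libraries were far above all adult ones, which sat near the limit of detection: the adult values rest on at most 7.92 implied fragments and TAC replicate 1 is listed at 0. Its log2 difference was 3.51 ± 0.30 (SE; adjusted p = 4.43e-05). Prim2, the large subunit of primase, was at 2.08, 2.16 and 2.59 in sham, 2.99, 5.06 and 2.45 in TAC and 15.1, 10.9 and 13.2 in fetal libraries, with no overlap between fetal and adult libraries and a log2 difference of 2.10 ± 0.25 (SE; adjusted p = 0.000245). Pold1, the catalytic subunit of the lagging-strand polymerase delta, and its partners Pold3 and Pold2 rose by 1.21, 1.35 and 0.62 on the log2 scale. Pold4, the smallest subunit of the same polymerase (chr1:206815339-206817128), went the other way, at 20.9, 30.2 and 22.6 in sham, 13.1, 23.9 and 25.1 in TAC and 7.18, 11.5 and 7.57 in fetal libraries. All 3 fetal values were below all 6 adult ones, and the log2 difference was -1.40 ± 0.29 (SE; adjusted p = 0.00429). Pole4, a small histone-fold subunit of polymerase epsilon and the most abundant gene of this group, was at 59.1, 80.7 and 75.4 in sham, 45.8, 82.4 and 116 in TAC and 28.5, 49.99 and 32.6 in fetal libraries. Fetal and sham libraries did not overlap, but TAC replicate 1 lay among the fetal values. The log2 difference of Pole4 was -0.96 ± 0.34 (SE; adjusted p = 0.0462), and the call was lost when single libraries were left out: without TAC replicate 2 (0.0634), fetal replicate 1 (0.137), fetal replicate 3 (0.12), sham replicate 1 (0.0567), sham replicate 2 (0.122) or sham replicate 3 (0.109). Pole4 was also not called with equal library totals (0.0833) or upper quartile scaling (0.1). With reference transcripts alone the calls were lost for Prim2 (adjusted p = 0.738), Pold1 (0.326), Pold2 (0.249) and Pold3 (0.132).

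Because FPKM is per length, levels of subunits can be set side by side within a library. This view was chosen after the values were seen and carries no test. Pold4 made up 38.4%, 47.8% and 38.6% in sham, 26.2%, 37.9% and 39% in TAC and 11%, 13.2% and 10.4% in fetal libraries of the summed level of Pold1, Pold2, Pold3 and Pold4. The fetal shares were lower than every adult share. Pole2 made up 0.25%, 0.163% and 0.284% in sham, 0%, 1.14% and 0.384% in TAC and 21.8%, 12% and 19.4% in fetal libraries of the sum of Pole2, Pole3 and Pole4, so it went from a trace in the adult libraries to a visible part in the fetal ones. Pole4 held 75.1%, 81.4% and 76.8% in sham, 71.2%, 79% and 84.3% in TAC and 41.7%, 58.4% and 45.9% in fetal libraries of that sum.

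**Figure D2:**
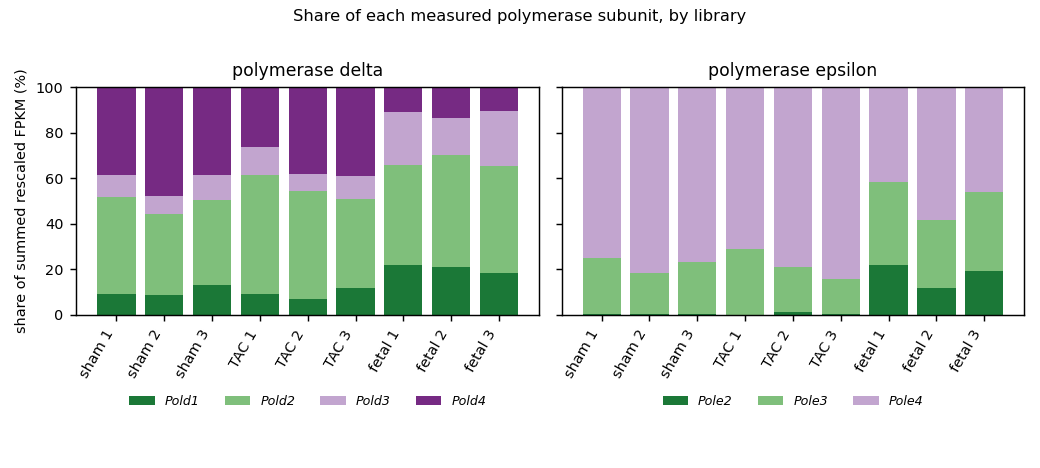
Share of the summed rescaled FPKM (percent, vertical axis) held by each measured subunit of polymerase delta (left) and polymerase epsilon (right) in each library. Pold4 falls from 38.4% to 47.8% in sham to 10.4% to 13.2% in fetal libraries, and Pole2 reaches 21.8% in fetal and at most 1.14% in adult libraries.

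Of the 5 other DNA polymerases, 2 rose and 3 fell. Polh, which copies past ultraviolet damage, was at 2.22, 1.37 and 1.496 in sham, 1.44, 1.35 and 1.19 in TAC and 5.404, 6.702 and 6.202 in fetal libraries, and its log2 difference was 1.41 ± 0.20 (SE; adjusted p = 0.000714). The 3 fetal values were above all adult values. Poli, a related translesion polymerase, was at 2.27, 1.05 and 2.76 in sham, 2.89, 1.84 and 2.55 in TAC and 3.697, 4.24 and 4.11 in fetal libraries, a log2 difference of 0.77 ± 0.27 (SE; adjusted p = 0.0431). Fetal values again lay above adult ones, but by a small margin, and the call of Poli was lost in several fits: without TAC replicate 3 (0.0584), fetal replicate 1 (0.0852), fetal replicate 2 (0.114), fetal replicate 3 (0.115), sham replicate 1 (0.0604) or sham replicate 2 (0.125). Counted over its reference transcripts alone, Poli had the opposite sign (log2 difference -1.19). That fit ended the call against sham of Poli (adjusted p = 0.0571) and of Polh (0.488).

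The polymerases of mitochondrial DNA and of end joining were called lower in fetal ventricle, but only under the main scaling. Polg, the catalytic subunit of the mitochondrial polymerase, was at 24.1, 24.3 and 32.8 in sham, 23.6, 22.8 and 20.3 in TAC and 18.9, 20.4 and 17.3 in fetal libraries, a log2 difference of -0.49 ± 0.16 (SE; adjusted p = 0.0352). Polg2, its accessory subunit, was at 5.64, 6.29 and 6.41 in sham, 8.199, 8.74 and 7.02 in TAC and 2.81, 5.29 and 2.88 in fetal libraries, a log2 difference of -0.65 ± 0.23 (SE; adjusted p = 0.0486). Poll, a gap-filling polymerase of end joining and base excision repair, was at 20.7, 20.5 and 20.1 in sham, 16.6, 21.4 and 23.4 in TAC and 14.8, 14.2 and 12.2 in fetal libraries, a log2 difference of -0.54 ± 0.16 (SE; adjusted p = 0.0234). In all 3 genes every fetal value was below every sham value, and in Polg only fetal replicate 2, above TAC replicate 3, overlapped the TAC libraries. These calls are near the threshold. All 3 were lost with equal library totals (adjusted p = 0.181 for Polg, 0.0778 for Polg2 and 0.174 for Poll). They were also lost with upper quartile scaling (0.146, 0.106 and 0.124). Polg lost its call with the replicate number as a block (adjusted p = 0.0606), and when single libraries were left out: without fetal replicate 1 (0.0787), fetal replicate 2 (0.0505), fetal replicate 3 (0.113) or sham replicate 3 (0.1). For Polg2 this happened in these fits: without TAC replicate 1 (0.0585), TAC replicate 2 (0.0608), TAC replicate 3 (0.0604), fetal replicate 1 (0.146), fetal replicate 3 (0.152), sham replicate 1 (0.0753), sham replicate 2 (0.11) or sham replicate 3 (0.112). For Poll it happened without fetal replicate 3 (0.0847), sham replicate 1 (0.0586) or sham replicate 2 (0.0591). With reference transcripts alone the calls were lost for Polg2 (adjusted p = 0.119) and Poll (0.0722), and Polg could not be fitted. The Polg reference transcript ENSRNOT00000044567 held 0% of its locus in all sham libraries and in replicates 2 and 3 of TAC and fetal. It held 100% in TAC replicate 1 and 25.1% in fetal replicate 1. Most Polg values thus rest on assembled transcripts, and that of TAC replicate 1 on a different transcript.

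The clamp loader places the ring-shaped clamp that holds polymerases on DNA. Of its 4 measured subunits 3 rose, and Rfc4 was not called. Rfc3 was at 9.08, 11.7 and 7.32 in sham, 10.8, 8.43 and 7.301 in TAC and 36.03, 37.4 and 35.9 in fetal libraries, a log2 difference of 1.87 ± 0.20 (SE; adjusted p = 0.000144). Rfc5 was at 4.45, 4.78 and 7.11 in sham, 4.202, 4.42 and 10.2 in TAC and 27.5, 16.7 and 18.5 in fetal libraries, a log2 difference of 1.75 ± 0.34 (SE; adjusted p = 0.00332), and Rfc2 rose by 1.71 on the log2 scale. Fetal libraries of all 3 genes lay above all adult ones. With reference transcripts alone, without the assembled ones, Rfc5 changed sign (-0.81, adjusted p = 0.665). Rfc4 was at 3.46, 4.31 and 3.11 in sham, 5.399, 3.32 and 3.59 in TAC and 29.7, 0 and 27.6 in fetal libraries. It is listed at 0 in fetal replicate 2, where an assembled transcript of the neighbouring locus overlaps its end, and the call turns on that value: adjusted p was 0.486 with the library and 0.000207 without it.

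Replication protein A shields single-stranded DNA. Rpa3, its smallest subunit, was at 4.88, 4.14 and 3.53 in sham, 9.29, 7.84 and 6.48 in TAC and 39.2, 36.8 and 20.3 in fetal libraries, a log2 difference of 2.63 ± 0.27 (SE; adjusted p = 0.000108). Rpa2, its middle subunit, was at 7.83, 13.5 and 7.503 in sham, 12.7, 12.02 and 11.2 in TAC and 29.5, 32.3 and 32.4 in fetal libraries, a log2 difference of 1.65 ± 0.21 (SE; adjusted p = 0.000391). In both genes all fetal libraries were above all adult libraries.

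Of the 4 measured genes of the origin recognition complex, 2 rose. Orc2l was at 11.2, 6.64 and 5.89 in sham, 7.96, 7.65 and 9.17 in TAC and 16.8, 14.3 and 16.1 in fetal libraries, a log2 difference of 0.95 ± 0.23 (SE; adjusted p = 0.00915). Orc4l was at 9.12, 9.98 and 5.51 in sham, 5.696, 8.13 and 10.7 in TAC and 20.9, 13.8 and 12.9 in fetal libraries, a log2 difference of 0.88 ± 0.30 (SE; adjusted p = 0.0405). Fetal values lay above adult values in both. Orc4l lost its call with the replicate number as a block (adjusted p = 0.0596) and in these fits: without TAC replicate 2 (0.0559), fetal replicate 1 (0.131), fetal replicate 2 (0.0655), fetal replicate 3 (0.0544), sham replicate 1 (0.0589) or sham replicate 3 (0.124). Its sign turned with reference transcripts alone (-0.52, adjusted p = 0.759), and Orc2l lost its call there (adjusted p = 0.428). Orc5l, the most abundant of the 4, was at 11.98, 13.7 and 14.95 in sham, 11.8, 18.5 and 17.5 in TAC and 16.03, 26.8 and 23.6 in fetal libraries, and did not pass the threshold (adjusted p = 0.0525), although it did with the replicate block (0.0155), without TAC replicate 1 (0.0344) or fetal replicate 1 (0.0205). Orc6l was at 1.49, 2.21 and 2.95 in sham, 0.577, 1.33 and 1.16 in TAC and 19.9, 0 and 17.8 in fetal libraries. Fetal replicate 2 is again listed at 0 beside an overlapping transcript of the neighbour Vps35, and the adjusted p was 0.366 with that library and 0.00054 without it.

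The 3 measured GINS genes, whose products form part of the replicative helicase, all rose. Gins1 (chr3:141535194-141557389), whose promoter window holds 2 overlapping E2F-type matches, was at 1.12, 2.55 and 2.39 in sham, 1.099, 0.469 and 3.16 in TAC and 25.5, 30.9 and 27.1 in fetal libraries, a log2 difference of 3.29 ± 0.38 (SE; adjusted p = 0.00022). Gins4 was at 2.76, 3.96 and 1.78 in sham, 5.895, 3.49 and 1.72 in TAC and 19.9, 20.7 and 21.7 in fetal libraries, a log2 difference of 2.54 ± 0.35 (SE; adjusted p = 0.000539), and Gins3 rose by 2.47 on the log2 scale. Every fetal value was above every adult value in these 3 genes. Gins4 lost its call with reference transcripts alone (adjusted p = 0.094).

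Fanconi anaemia proteins repair crosslinks between DNA strands and protect stalled forks. Of 8 members 5 rose, none fell, and Fance, Fancf and Fancl were not called. Of those 5, Fanca, Fancb, Fancd2 and Fancg passed the filter through the fetal libraries and lend no weight to the count, which leaves Fancc. Fancd2, the protein that the pathway's core complex marks with ubiquitin (chr4:149424532-149500006), was at 0.432, 0.502 and 0.717 in sham, 0.854, 1.12 and 0.377 in TAC and 18.9, 13.9 and 24.3 in fetal libraries, a log2 difference of 3.66 ± 0.27 (SE; adjusted p = 1.77e-05). Fanca, of the core complex, was at 1.75, 0 and 0 in sham, 1.25, 0.882 and 0 in TAC and 6.46, 10.5 and 4.71 in fetal libraries, a log2 difference of 2.49 ± 0.49 (SE; adjusted p = 0.00368). Fetal libraries of both lay above all adult libraries, 3 of which list Fanca at 0. Fancb, Fancc and Fancg rose by 2.36, 1.69 and 1.35 on the log2 scale. Fancl, the ubiquitin ligase that acts on Fancd2 and the most abundant of the 8, was at 8.54, 8.32 and 8.602 in sham, 2.198, 13.5 and 4.82 in TAC and 10.3, 11.01 and 7.76 in fetal libraries. Its groups overlapped, and the log2 difference was 0.16 ± 0.47 (SE; adjusted p = 0.81). Counted over reference transcripts alone, the calls of Fancc (adjusted p = 0.11) and Fancg (0.234) were lost.

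Brca1 and Brca2 serve homologous recombination, which mends breaks by copying from an intact strand. Brca1 (chr10:90513630-90572676) was at 0.581, 0.216 and 0.306 in sham, 0.311, 0.0895 and 0.378 in TAC and 8.198, 14.3 and 9.24 in fetal libraries, a log2 difference of 3.05 ± 0.26 (SE; adjusted p = 3.73e-05). Brca2 was at 0.464, 0.368 and 0.4399 in sham, 0.766, 0.848 and 0.371 in TAC and 5.35, 3.797 and 5.08 in fetal libraries, a log2 difference of 2.001 ± 0.22 (SE; adjusted p = 0.000168). Both were below 1 in all adult libraries and above 3 in all fetal ones. Both passed the filter through the fetal libraries.

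**Figure D3:**
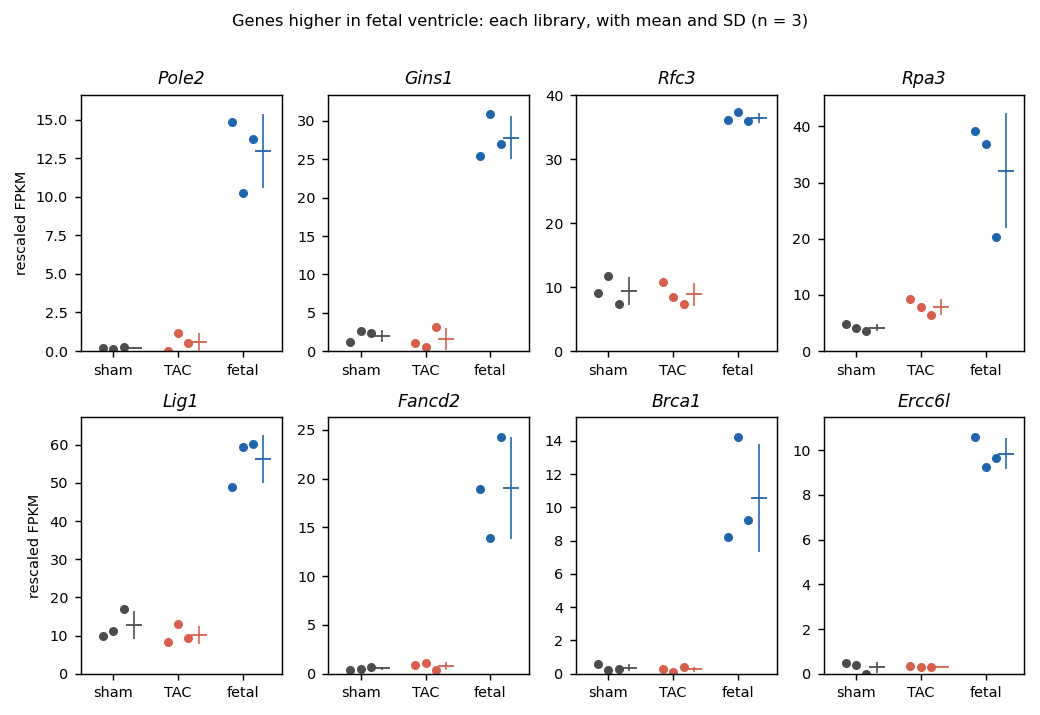
Rescaled FPKM (vertical axis, from 0) of 8 genes called higher in fetal ventricle, for each library of each group; the tick and bar beside the points are the mean and SD of 3 libraries. In each gene the 3 fetal libraries lie above all 6 adult ones.

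Of the 10 tested genes with Rad names, 8 rose and none fell. Rad51ap1, a DNA-binding protein of homologous recombination, was at 0.913, 1.55 and 2.34 in sham, 3.71, 1.16 and 2.38 in TAC and 12.9, 14.5 and 23.7 in fetal libraries, a log2 difference of 2.79 ± 0.36 (SE; adjusted p = 0.000404). Rad51c, of the same pathway, was at 0.902, 0.695 and 1.02 in sham, 1.19, 2.08 and 0.555 in TAC and 9.16, 7.12 and 7.53 in fetal libraries, a log2 difference of 2.25 ± 0.27 (SE; adjusted p = 0.000282). In both, no adult library reached the fetal range. Rad23b, which helps to recognise damage in nucleotide excision repair and carries ubiquitinated proteins to the proteasome, had the highest level of the family, at 106, 92.8 and 121 in sham, 104, 112 and 100.3 in TAC and 153, 132 and 174 in fetal libraries. Its fetal values were above all adult ones by a small margin (log2 difference 0.52 ± 0.15 (SE; adjusted p = 0.021)), and the call was lost in these fits: without fetal replicate 1 (0.0549), fetal replicate 3 (0.0797), sham replicate 1 (0.0529) or sham replicate 2 (0.0713). Rad21, the ring-closing subunit of cohesin, was at 62.3, 68.4 and 69.3 in sham, 69.2, 74.05 and 68.2 in TAC and 193, 169 and 182 in fetal libraries, a log2 difference of 1.43 ± 0.11 (SE; adjusted p = 2.47e-05), and its standard error was the smallest among the members. Rad51l3 and Rad9b were not called. Reference transcripts alone ended the calls of Rad1 (adjusted p = 0.314), Rad17 (0.112), Rad23b (0.102), Rad51l1 (0.545) and Rad9 (0.0625).

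Of 6 tested genes with Xrcc names, 4 rose and none fell. Xrcc2, of homologous recombination, was at 0.899, 1.63 and 1.37 in sham, 2.35, 1.81 and 0.869 in TAC and 8.097, 6.17 and 7.64 in fetal libraries, a log2 difference of 1.86 ± 0.27 (SE; adjusted p = 0.000718). Xrcc6, one partner of the Ku heterodimer that binds broken ends, was at 9.29, 8.69 and 7.74 in sham, 14.4, 8.21 and 10.3 in TAC and 26.3, 26.2 and 29.3 in fetal libraries, a log2 difference of 1.56 ± 0.20 (SE; adjusted p = 0.000387). Fetal libraries lay above adult ones in both. The second Ku partner, Xrcc5, was at 9.397, 11.4 and 12.2 in sham, 13.2, 18.8 and 14.5 in TAC and 16.2, 15.6 and 18.3 in fetal libraries, a log2 difference of 0.56 ± 0.18 (SE; adjusted p = 0.0306), and here fetal and TAC libraries overlapped. Xrcc1, the scaffold of single-strand break repair and the most abundant of the 6, was at 17.99, 19.4 and 17.5 in sham, 19.7, 22.2 and 22.6 in TAC and 22, 30.99 and 28.3 in fetal libraries, a log2 difference of 0.53 ± 0.16 (SE; adjusted p = 0.0228). Its fetal libraries lay above the sham ones and overlapped the TAC ones. For Xrcc5 the call was lost without fetal replicate 1 (0.064), fetal replicate 2 (0.0518), fetal replicate 3 (0.102), sham replicate 1 (0.0934) or sham replicate 2 (0.0597). For Xrcc1 it was lost without fetal replicate 2 (0.0784), fetal replicate 3 (0.0764), sham replicate 1 (0.0574) or sham replicate 3 (0.0604). Reference transcripts alone ended the calls of Xrcc1 (adjusted p = 0.735), Xrcc2 (0.0812) and Xrcc5 (0.144). Xrcc6 made up 49.7%, 43.3% and 38.8% in sham, 52.1%, 30.4% and 41.5% in TAC and 61.9%, 62.7% and 61.6% in fetal libraries of the summed Xrcc5 and Xrcc6 level, a description with no test.

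Mismatch repair corrects copying errors. Of 4 tested genes 2 rose, 1 fell and 1 was not called. Msh6, of the complex that recognises mismatches, was at 12.1, 12.4 and 13.8 in sham, 10.4, 11.6 and 12.4 in TAC and 33.7, 26.8 and 30.9 in fetal libraries, a log2 difference of 1.19 ± 0.15 (SE; adjusted p = 0.000307). All its fetal libraries were above all adult ones. Mlh3, with a large part in meiosis, was at 10.9, 11.9 and 10.9 in sham, 11.6, 9.98 and 11.3 in TAC and 6.93, 7.23 and 7.68 in fetal libraries, a log2 difference of -0.56 ± 0.15 (SE; adjusted p = 0.0131). Here all fetal values were below all adult values. With reference transcripts alone Mlh3 was not called (adjusted p = 0.132). Its call was also lost with equal library totals (0.144), upper quartile scaling (0.0671) and replicates 2 and 3 alone (0.0738).

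Of the 6 genes with Ercc names, 3 rose, 2 fell and Ercc1 was not called. Ercc6l (chrX:90195318-90212088) is a DNA translocase of mitosis that acts on thin DNA bridges between separating chromosomes, and was at 0.476, 0.384 and 0 in sham, 0.3503, 0.294 and 0.285 in TAC and 10.6, 9.26 and 9.66 in fetal libraries, a log2 difference of 3.09 ± 0.22 (SE; adjusted p = 1.57e-05). Ercc8, of transcription-coupled repair, was at 7.59, 4.24 and 3.85 in sham, 8.19, 6.24 and 4.76 in TAC and 12.2, 11.2 and 14.6 in fetal libraries, a log2 difference of 1.17 ± 0.27 (SE; adjusted p = 0.00812). Fetal values lay above adult ones in both. Ercc3, the helicase of the transcription and repair factor TFIIH (chr18:24684871-24716141), was at 34.5, 31.5 and 36.4 in sham, 36.6, 28.4 and 29.1 in TAC and 21.6, 19.1 and 16.2 in fetal libraries, a log2 difference of -0.82 ± 0.16 (SE; adjusted p = 0.00313). Ercc5, the nuclease that cuts one side of a damaged stretch, was at 13.6, 11.3 and 13.2 in sham, 11.1, 12.7 and 13.8 in TAC and 5.32, 9.18 and 8.55 in fetal libraries, a log2 difference of -0.69 ± 0.21 (SE; adjusted p = 0.0286). In both, every fetal library was below every adult library. The call of Ercc5 was lost without fetal replicate 1 (0.0755), sham replicate 1 (0.0772) or sham replicate 3 (0.073). Equal library totals (0.114) and upper quartile scaling (0.0836) ended it too. Ercc4, the nuclease that cuts the opposite side together with Ercc1, rose by 0.96 on the log2 scale, with fetal replicate 3 at 10.8 and the remaining fetal libraries at 4.45 and 4.15. That call was lost without TAC replicate 2 (0.055), TAC replicate 3 (0.0548), fetal replicate 3 (0.111), sham replicate 1 (0.105), sham replicate 2 (0.0683) or sham replicate 3 (0.0814). Reference transcripts alone ended the calls of Ercc4 (adjusted p = 0.21), Ercc5 (0.428) and Ercc8 (0.542). Ercc6l passed the filter through the fetal libraries.

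Lig1, the ligase that joins the fragments of the lagging strand, was at 9.99, 11.3 and 16.9 in sham, 8.45, 12.9 and 9.29 in TAC and 49.02, 59.4 and 60.3 in fetal libraries, a log2 difference of 2.08 ± 0.23 (SE; adjusted p = 0.000162). All fetal libraries were above all adult ones. Lig4, the ligase of end joining, was not called (log2 difference 0.52 ± 0.19 (SE; adjusted p = 0.0583)). Of the sum of both, Lig1 held 59.7%, 71.3% and 76.5% in sham, 65.5%, 68% and 63.6% in TAC and 85.7%, 88.4% and 87.5% in fetal libraries. Top1mt, the mitochondrial topoisomerase and the only topoisomerase found by name, was at 4.802, 4.24 and 4.83 in sham, 3.98, 4.33 and 4.91 in TAC and 6.75, 8.04 and 6.49 in fetal libraries, a log2 difference of 0.52 ± 0.17 (SE; adjusted p = 0.0375). The 3 fetal values were above all adult values. The call of Top1mt was lost with the replicate block (adjusted p = 0.0678) and without fetal replicate 1 (0.0755), fetal replicate 2 (0.122), fetal replicate 3 (0.071), sham replicate 1 (0.0674), sham replicate 2 (0.104) or sham replicate 3 (0.0649). It was also lost with reference transcripts alone (0.958).

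The 8 genes called lower are the part of the result that depends on the scaling. With equal library totals 43 members were higher and 2 lower, and with upper quartile scaling 47 and 2, against 43 and 8. Of all loci 23.6% and 17.9% were called higher and lower with equal totals, and 28.5% and 19.1% with upper quartile scaling. The shares were 22.5% and 23.2% in the main fit. The 2 that stayed lower under both scalings were Pold4 (log2 difference -1.25 and -1.22) and Ercc3 (-0.66 and -0.63). These scalings moved the median of all loci to 0.19 and 0.22, and all 8 genes kept their sign under both. The 8 had sham means from 6.11 (Polg2) to 71.7 (Pole4), and their sham means were 1.44 to 2.80 times their fetal means. The 16 genes over 5-fold higher had sham means from 0.212 (Pole2) to 4.18 (Rpa3). They include Pole2, Fanca, Fancd2, Brca1, Brca2 and Ercc6l, which entered through the fetal libraries and so had to be low in sham. Of these 16, 10 rested on fewer than 10 implied fragments in at least 1 adult library. Of the 51 calls, 19 kept call and sign in each of the up to 23 alternative fits in which the gene was tested, and 47 held with the replicate number as a block. Among the 19 are Pole2, Fanca, Fancb, Fancd2, Brca1, Brca2 and Ercc6l. These entered through the fetal libraries, had to differ and lend no weight to that count.

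**Figure D4:**
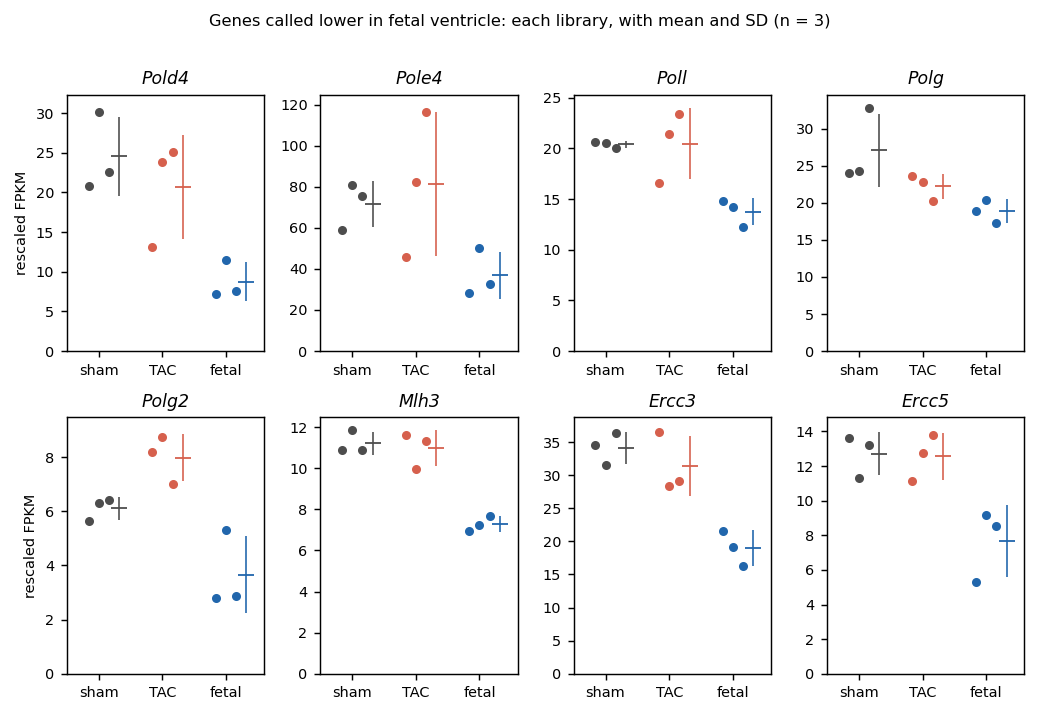
Rescaled FPKM (vertical axis, from 0) of the 8 genes called lower in fetal than in sham ventricle, for each library of each group; the tick and bar are the mean and SD of 3 libraries. Every fetal value is below every sham value.

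TAC was compared with sham to see whether pressure overload moves these genes, and no member was called in either direction. Of all 14116 loci, 1 was called higher (0.00708%) and 2 lower (0.0142%), so the comparison made few calls anywhere. At an unadjusted p below 0.05 stood 3 of 65 members (608 of all loci, 4.31%), and all 3 had an adjusted p of 1.0, or 0.905 with the replicate block. They were Xrcc3, Rpa3 and Xrcc5. Xrcc3, of homologous recombination, was at 2.39, 2.45 and 3.204 in sham, 0.458, 0 and 1.69 in TAC and 1.88, 2.802 and 1.39 in fetal libraries. TAC libraries were below sham libraries, with TAC replicate 2 listed at 0 and TAC replicate 1 resting on 2.08 implied fragments (log2 difference -1.22 ± 0.37, SE). Rpa3, whose levels are given above, was higher in all 3 TAC libraries than in all 3 sham libraries and lower than in all fetal ones (log2 difference 0.77 ± 0.27, SE). Xrcc5 was likewise higher in all TAC than in all sham libraries (log2 difference 0.45 ± 0.18, SE).

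TAC and sham libraries did not overlap in 8 of the 65 members. TAC was above sham in 5 (Pold2, Polg2, Rpa3, Xrcc1 and Xrcc5; 7.69%, against 4.26% of all loci) and below it in 3 (Polg, Orc6l and Xrcc3; 4.62%, against 4.58%). The members' median log2 difference was 0.03, between -1.22 and 0.77, and the median of all loci was -0.01. The standard errors of the members show what this design could resolve: 0.11 for Rad21, 0.30 for Pole2 and 1.14 for Rfc4 on the log2 scale. A p that misses the threshold does not show that TAC and sham ventricles are alike.

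Set against TAC in place of sham, the fetal libraries gave 41 members higher, 7 lower and 17 not called, beside 22.8% and 22.9% of all loci. The median of the members was 0.95 and that of all loci 0.03. Without the 8 genes that entered through the fetal libraries, 33 of 57 were higher and 7 lower, beside 20.4% and 24.4% of loci. With no filter 37 and 6 of 67 were called, beside 17.4% and 15.9% of loci. This comparison shares its fetal libraries with the first, so its calls are no independent evidence. In both, 39 members were called higher and 7 lower, while Polg was called lower against sham only. The 39 include the 8 genes that entered through the fetal libraries. The share of all loci called in both is not given here, so these 2 counts have no background. Pold2, Poli, Xrcc1 and Xrcc5 were called higher against sham only, with log2 differences from TAC of 0.36, 0.56, 0.31 and 0.11. Of the 2 genes called higher against TAC only, Lig4 had a log2 difference of 0.56 (adjusted p = 0.0438). That call was lost with the replicate block (0.0747) and without TAC replicate 1 (0.11), TAC replicate 3 (0.0861), fetal replicate 1 (0.0993), fetal replicate 2 (0.0796), fetal replicate 3 (0.123) or sham replicate 3 (0.0573). With reference transcripts alone Poli was called lower than in TAC (log2 difference -1.59, adjusted p = 0.0188), and 13 members were higher and 3 lower in all, beside 5.79% and 11.0% of loci. The difference between these comparisons is the TAC against sham comparison, in which none of these genes was called. With equal library totals the split was 43 higher and 2 lower, beside 25.9% and 16.3% of loci. With upper quartile scaling it was 48 and 2, beside 31.0% and 17.6%. The 2 called lower were Pold4 and Polg2 under both. The count of 7 lower came to 4 without TAC replicate 2, without TAC replicate 3 or without fetal replicate 1. In these fits 20.1% to 20.2% of loci were called lower.

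The same libraries were read for whether a gene's transcripts change in proportion. The share of a reference transcript in its locus could be tested for 55 transcripts of 48 members. Only the Rad21 transcript ENSRNOT00000006209 was called in fetal against sham (1.15% of 11666 transcripts of all loci) and in fetal against TAC (1.72%), and none in TAC against sham (0.0514%). It held 100% of the locus in all 6 adult libraries and 60.7%, 66.8% and 59.2% in fetal replicates 1, 2 and 3, with transcripts assembled in those libraries making up the rest (adjusted p = 0.0478 against sham and 0.0351 against TAC). Fetal libraries were deeper, with 10700, 7060 and 10200 implied fragments at this locus in fetal libraries, against 2120, 1860 and 3000 in sham and 1060, 1050 and 1870 in TAC, and the part of depth in the number of assembled transcripts was not tested. The call against sham was lost with the replicate block, with a covariate that set replicate 1 apart and with replicates 2 and 3 alone. It was also lost without any 1 fetal or sham library or TAC replicate 3. Without TAC replicate 1 the count against sham was 2. The call against TAC was lost in the first 3 of these fits and without any 1 fetal or TAC library. In Brca1 the reference transcript ENSRNOT00000028109 held 100% in all adult libraries and 0%, 7.48% and 0% in the fetal ones, which did not pass the threshold (adjusted p = 0.0622). That gene is singled out here after its values were seen.

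Related genes with no place in the chosen families were counted from fixed lists in the fetal against sham comparison. Beside every count of these lists, 22.5% of all loci tested were called higher and 23.2% lower. The lists were not recounted without loci that passed the filter through the fetal libraries. Of 22 helicase, licensing and fork loci 19 rose and none fell, with a median log2 difference of 2.66, led by Mcm6, a helicase subunit (log2 difference 3.98, adjusted p = 3.4e-06), and Dbf4, the activator of the Cdc7 kinase (log2 difference 3.86, adjusted p = 0.00017). Of 9 nucleotide supply genes 6 rose, led by Rrm2, a subunit of ribonucleotide reductase (log2 difference 3.27, adjusted p = 0.0245). Rrm2b, the variant of that subunit used outside S phase, fell (log2 difference -0.86, adjusted p = 0.0258). The Rrm2 call was lost without fetal replicate 1 (0.0688), fetal replicate 3 (0.0592), sham replicate 2 (0.075) or sham replicate 3 (0.0557). It was also lost with reference transcripts alone (0.0688). The Rrm2b call was lost with equal library totals (0.0989), with upper quartile scaling (0.0807) and with replicates 2 and 3 alone (0.112). It was also lost without any 1 fetal or sham library (0.0538 to 0.0725). Dbf4 and Rrm2 fell below the filter with replicates 2 and 3 alone. They thus passed it through the fetal libraries and lend no weight to the counts.

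Damage signalling genes went both ways: 8 of 14 rose, led by the checkpoint kinases Chek1 (log2 difference 3.39, adjusted p = 3.87e-05) and Chek2 (log2 difference 3.03, adjusted p = 7.84e-05), and 2 fell. Those were Cdkn1a, the cell cycle inhibitor p21 (log2 difference -1.99, adjusted p = 0.00576), and Gadd45a (log2 difference -1.29, adjusted p = 0.00259), both targets of p53. Of 43 other repair loci 20 rose and none fell, with a median of 0.65, led by Ube2t, the enzyme that supplies ubiquitin for Fancd2 (log2 difference 3.84, adjusted p = 4.07e-05), and Eme1, a nuclease partner of Mus81 (log2 difference 3.10, adjusted p = 0.000179). Eme1 fell below the filter once any fetal library was left out, so it passed through the fetal libraries and lends no weight to the count. In TAC against sham no gene of these 4 lists was called.

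**Figure D5:**
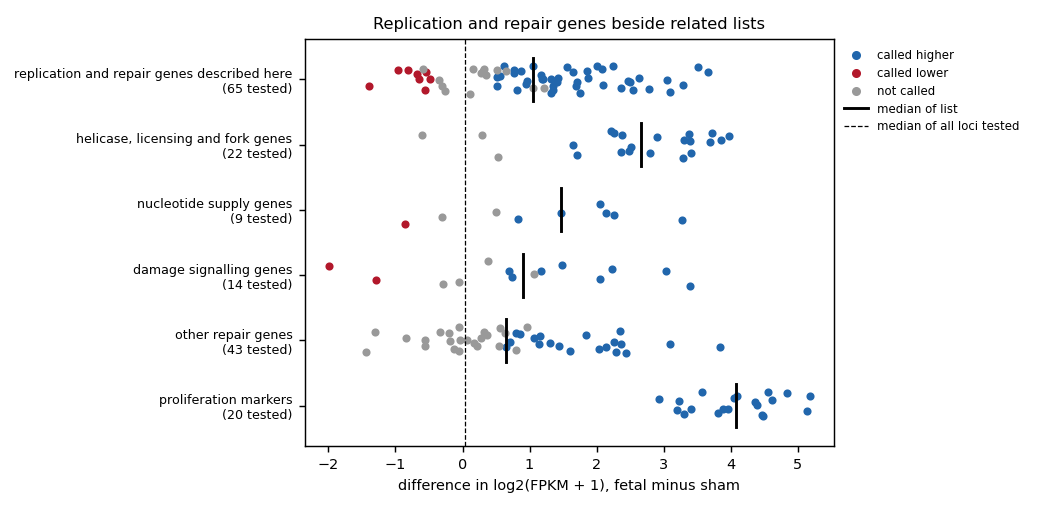
Difference in log2(FPKM + 1), fetal minus sham (horizontal axis), of each tested locus in 6 lists (rows); colour shows the call, the heavy tick the median of the list and the dashed line the median of all loci tested. The medians run from 0.65 for other repair genes to 4.07 for proliferation markers, with 1.06 for the genes described here.

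Markers of dividing cells and of other cell types were counted in the same contrast, where 22.5% of all loci were called higher and 23.2% lower. These counts include any locus that passed the filter through the fetal libraries. Those of smooth muscle (1 of 4 higher), fibroblast (2 of 8 higher) and neural markers (2 of 6 lower) are near the shares of all loci. All 20 proliferation loci measured, such as Ccna2 and Prc1, were called higher in fetal ventricle (median 4.07), and their sum was 32.8 to 60.8 in sham, 24.1 to 47.3 in TAC and 1035 to 1343 in fetal libraries. Erythroid markers summed to 48.5 to 124.5 in sham, 33.9 to 91.5 in TAC and 148.9 to 412.2 in fetal libraries, with 4 of 8 called higher than in sham and 1 lower. For epicardial markers the sums were 11.4 to 17.1, 13.0 to 19.5 and 35.4 to 55.7 in the same order, with 2 of 5 higher. Smooth muscle markers summed to 94.8 to 255.3, 88.1 to 156.0 and 197.0 to 256.3, with 1 of 4 higher. Fetal and adult sums overlapped for smooth muscle only among these 3 lists, and markers of immune cells were lower. Macrophage markers summed to 274.1 to 506.5, 293.3 to 485.4 and 57.9 to 68.2, with all 6 lower, and lymphocyte markers to 56.3 to 76.2, 58.8 to 84.1 and 5.49 to 5.80, with 5 of 7 lower. Fibroblast markers were split, with 2 of 8 higher and 5 lower (sums of 1396 to 1970, 1858 to 1980 and 1121 to 1407). Of endothelial markers 3 of 5 were lower (217.4 to 332.4, 249.4 to 359.5 and 126.0 to 224.4), or 1 of 5 with equal library totals or upper quartile scaling. Of neural markers 2 of 6 were lower (12.1 to 28.9, 14.5 to 22.3 and 8.15 to 13.2). No marker found by symbol was at 0 in every library. Mb was at 20001, 24815 and 18583 in sham and at 649, 1479 and 1208 in fetal libraries. The part of these cell types in the members' changes was not tested.

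Without strand information, reads of overlapping genes cannot be told apart. The extent of 21 of the 67 members overlapped another locus, among them Gins1, Gins4, Fanca, Brca1, Brca2, Polg, Poll, Rpa2, Xrcc3, Xrcc6, Msh6 and Lig1. The extents of Pole2, Pold4, Pole4, Rfc3, Rpa3, Fancd2, Ercc3 and Ercc6l overlapped none.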

How the data were processed

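RNA of 9 rat heart libraries was sequenced from TruSeq libraries, which do not mark strand. Per the submitters' processing notes, TopHat 1.3.1, Cufflinks 1.0.3, Cuffdiff and the build rn4 were used. The authors deposited FPKM per gene and isoform, which are multiplied by a further constant in each library (medians above 0 differ between libraries). These values were divided by median-of-ratios factors over 13139 loci above 0 in every library. Reference transcripts that shared a gene in at least 5 libraries formed a locus, and a locus value is the sum of its transcripts.

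Loci of at least 200 nt with 1 FPKM or more in at least 3 libraries were fitted together with limma 3.58.1 in R 4.3.3 (lmFit, eBayes with trend, 6 residual degrees of freedom) on log2(FPKM + 1), with Benjamini-Hochberg adjustment over all 14116 loci at 0.05. Shares were tested as log2((transcript + 1)/(rest + 1)) where the locus averaged 3 or more and the share 5% to 95%.

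With group means removed, same-numbered libraries of different groups correlated (0.461 to 0.514 for number 1, 0.222 to 0.263 for number 2, 0.137 to 0.185 for number 3). Libraries numbered 2 and 3 also correlated with each other (0.136 to 0.277), and number 1 with neither (-0.398 to -0.205). Every same-number value passes the rule used here for pairing (over 0.1), but so does every value of number 2 with 3. The values thus set number 1 apart from 2 and 3 and do not pair 2 and 3 by number. The labels do not say what the number marks. The families and lists, and so their members, were chosen with earlier results of these data known; within a family the symbol decided. Every library is given for, per family, the 2 largest rises, the falls (2 at most), the highest level and the 3 smallest TAC against sham p-values. Alternatives covered scaling, pseudocount, filter, block, trend and weights, reference transcripts alone and single libraries left out. Some genes of these families and lists enter the counts but are not reported here by name.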

Additional observations from a re-analysis of the deposited data

How the results depend on the processing

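Fetal against sham, 43 members higher and 8 lower, became 66 and 0 on the values as deposited. There 85.6% of all loci were called higher and 2.13% lower, and a member not tested above passed the filter. With reference transcripts only, 15 and 3 of 60 members were called (5.82% and 10.2% of loci). With replicates 2 and 3 alone it was 28 and 4 of 59 (16.9% and 21.0%). The lower count was 2 with equal library totals (17.9% of loci) and 2 with upper quartile scaling (19.1%). Leaving out 1 library gave 29 to 44 higher and 4 to 7 lower, with 4 lower without fetal replicate 1, fetal replicate 3, sham replicate 1 or sham replicate 3 and 5 without sham replicate 2. In these fits 61 or 65 members were fitted, and 16.4% to 23.5% of loci were higher and 19.8% to 24.0% lower. Fetal against TAC, 41 higher and 7 lower, became 66 and 0 on the values as deposited (93.5% and 0.804% of loci). It became 13 and 3 with reference transcripts only (5.79% and 11.0%). The lower count was 2 with equal library totals (16.3% of loci) and 2 with upper quartile scaling (17.6%). It was 4 with only the libraries compared (22.4%) and 4 with replicates 2 and 3 alone (20.5%). Leaving out 1 library gave 28 to 38 higher and 4 to 7 lower, beside 16.6% to 22.6% and 19.5% to 22.8% of loci. The transcript share count of 1 in each fetal comparison was 0 with the replicate block and with replicates 2 and 3 alone. It was also 0 with a covariate that set replicate 1 apart from 2 and 3. Without 1 library it was 0 to 2 (sham) or 0 to 1 (TAC). TAC against sham gave 0 members and 0 shares in every fit. The deposited values carry the library constant, which moves the median of all loci by 2.40 and 3.43 in the fetal comparisons and by -1.05 in TAC against sham. There the log2 difference turned in 12, 9 and 36 of 65 members (against sham, against TAC, and TAC against sham). Among called members these were, against sham, Pold4 (1.11), Pole4 (1.67), Polg2 (1.53), Poll (1.98), Polg (2.07), Mlh3 (1.84), Ercc3 (1.76) and Ercc5 (1.72). Against TAC they were Pold4 (2.52), Pole4 (2.92), Polg2 (2.19), Poll (3.17), Mlh3 (2.89), Ercc3 (3.13) and Ercc5 (2.80), while in TAC against sham, with no member called, Rpa3 (-0.31) and Xrcc5 (-0.72) were 2 of the 36. With reference transcripts only it turned in 7, 8 and 15 of 60 members: among those called, against sham in Poli (-1.19), Rfc5 (-0.81) and Orc4l (-0.52) and against TAC in Rfc5 (-1.22) and Orc4l (-0.59). Poli, not called against TAC, was called lower there (-1.59). The cause was not tested. With the replicate block 47 of 51 calls against sham and 45 of 48 against TAC held. It ended the calls of Polg, Orc4l, Rad51l1 (adjusted p = 0.0571) and Top1mt against sham and of Orc4l (0.0584), Rad51l1 (0.0563) and Lig4 against TAC, gave Orc5l against sham, and changed no other member's call. Depth limits the adult values: 12 members called higher had fewer than 10 implied fragments in an adult library.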
